A study of Mus musculus with 4 samples.

Results

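The loci described here are the entries of the authors' gene-level comparison that carry no gene symbol. They were chosen as the rows whose gene field holds a dash, which gave 2904 of 26815 rows, beside 23704 rows with 1 symbol and 207 with several. The authors tested 2874 of them and left 30 untested. RNA came from neural stem cells of the cortex of E14.5 embryos (CD-1 mice), grown as a monolayer on poly-L-ornithine and laminin with EGF and bFGF, which keep such cells dividing. All cells had received a lentivirus and were expanded under puromycin at 0.5 µg/mL. In 2 libraries the virus carried a scrambled shRNA (SHC002), and in 2 it carried an shRNA against Foxp1, a forkhead transcription factor. The titles of the 2 libraries of a group end in p1 and p2, and the titles do not say what the p stands for. A p-value measures the spread between these libraries only, and each group rests on a single shRNA. The deposited comparison sets a condition coded q2 against one coded q1, and nothing in the labels or headers says which code is which shRNA, so every direction is q2 relative to q1. No value per library was used, and read depth is unknown.

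A row without a symbol arises when an assembler such as Cufflinks joins reads into a transcript fragment that it cannot attach to a gene of the annotation it was given. Such fragments can be outlying pieces of known genes (a distal 3' UTR beyond the annotated end, or an exon upstream of the annotated start), RNA from promoters, noncoding RNA, or reads placed on a processed pseudogene, an intronless copy of a coding gene. The 3' UTR of many brain genes is extended in neural cells by use of distal polyadenylation sites, and CpG-rich promoters often give short RNA near the start of transcription. To sort the loci, each was placed on the gene annotation GENCODE M21 of the same genome build, GRCm38 (mm10).

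The sequences below are those that the later sections turn on. First come 2 processed pseudogenes whose loci were called in the comparison, each above the coding sequence that matches it best, from GENCODE M21 transcripts, with capitals at the bases where the 2 members of a pair differ. The stretches lie at chr6:83601508-83601657 on the minus strand for Gm7424 and chr15:27025946-27026004 on the plus strand for Gm6576 (GRCm38).
Gm7424: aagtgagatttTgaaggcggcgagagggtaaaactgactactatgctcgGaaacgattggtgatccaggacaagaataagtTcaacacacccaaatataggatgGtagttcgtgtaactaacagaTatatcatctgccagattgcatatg
Rpl5: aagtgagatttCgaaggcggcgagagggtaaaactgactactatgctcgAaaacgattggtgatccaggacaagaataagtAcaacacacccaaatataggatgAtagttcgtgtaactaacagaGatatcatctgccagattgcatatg
Gm6576: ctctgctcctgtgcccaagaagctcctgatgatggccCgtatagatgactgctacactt
Rps2: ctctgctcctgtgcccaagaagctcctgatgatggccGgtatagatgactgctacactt
Over 150 bases Gm7424 and Rpl5 differed at 5 positions, and over its 59 bases Gm6576 differed from Rps2 at 1. A read that covers none of these positions matches the pseudogene and the coding gene equally well, so the values of such loci are uncertain.

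Long noncoding RNAs form the next set, shown as the last 150 bases of the exonic part of 2 called loci, with the polyadenylation signal AATAAA or its variant ATTAAA in capitals where the strand of the transcript holds it. The stretches are chr6:52161970-52162119 on the plus strand (Hotairm1) and chr14:105627262-105627411 on the minus strand (Gm6145). The last sequence is a locus in the promoter of Igf1r, the receptor of insulin-like growth factor, at chr7:67952061-67952191 on the plus strand, from the RefSeq promoter table (GRCm38.p6), with CG in capitals.
Hotairm1: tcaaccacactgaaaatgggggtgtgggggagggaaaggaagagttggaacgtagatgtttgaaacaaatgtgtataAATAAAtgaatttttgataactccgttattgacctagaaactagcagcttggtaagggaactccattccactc
Gm6145: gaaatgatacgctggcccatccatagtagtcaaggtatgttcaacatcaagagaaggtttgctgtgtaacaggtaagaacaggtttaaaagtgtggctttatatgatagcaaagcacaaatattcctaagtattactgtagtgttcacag
Igf1r promoter locus: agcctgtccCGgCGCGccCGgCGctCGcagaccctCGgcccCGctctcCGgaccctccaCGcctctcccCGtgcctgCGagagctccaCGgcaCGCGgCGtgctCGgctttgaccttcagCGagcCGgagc
The same stretch could be read for 256 long noncoding loci, and 47 (18.4%) held a signal, 2 of 7 among the called loci; it need not be the end of a transcript, nor of the locus. The Igf1r locus held 19 CG in its 131 bases, a pattern that reads the same on both strands, against a median of 2.33 per 100 bases and an upper quartile of 6.67 over 32851 RefSeq promoter windows.

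The loci were short. Their median length was 285 bases, with quartiles of 173 and 448 and a range of 40 to 43625, and 94.2% were under 1000 bases, whereas rows with a symbol had a median of 19279 bases. The longest was XLOC_026220, 43625 bases on the minus strand of chromosome X, which overlaps the row of Chst7 and had a log2 fold change of -0.63 per the authors' deposited table (Cuffdiff q = 0.515). XLOC_021496, next with 32038 bases, overlaps Cacng7 on chromosome 7 and was not tested. The other 3 of the 5 longest, XLOC_025557, XLOC_025558 and XLOC_025560, are the same 10191 bases of the mitochondrial genome, listed as 2 plus-strand loci and 1 minus-strand locus. 

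**Figure D1:**
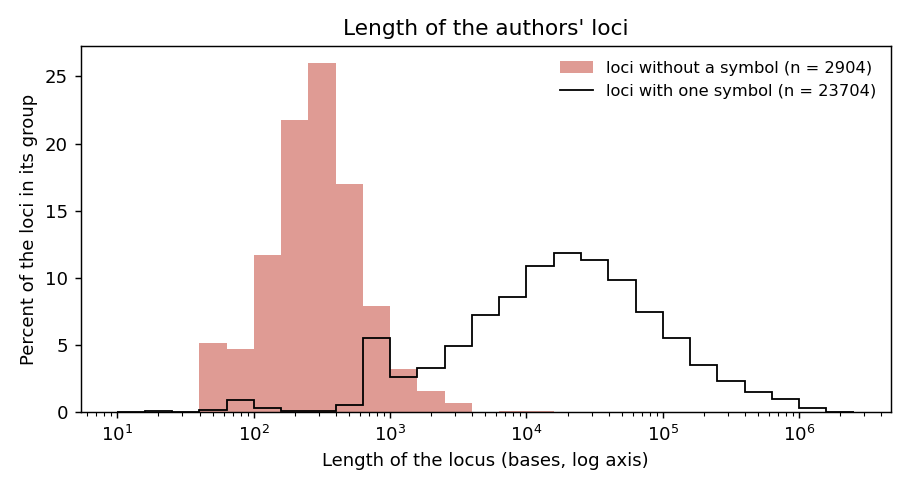
Length of the authors' loci in bases on a log axis (x) against the percent of loci in each length class (y). Filled red shows the 2904 loci without a symbol and the black line the 23704 loci with 1 symbol; most of the former lie under 1000 bases, with a median of 285.

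More of the loci lay in known genes than outside them. On the strand read for them, 1721 (59.3%) overlapped an annotated exon by at least 1 base, 1040 of these in a coding gene. By class, 390 lay in a 3' UTR, 311 in coding sequence, 292 in a 5' UTR, 348 in a pseudogene, 333 in a long noncoding RNA and 47 in another exon of a coding gene. Introns of the same strand held 238, introns of the opposite strand 51, and 72 were antisense to an exon. Outside any annotated gene stood 814 (28.0%), and 8 were mitochondrial. Exonic loci, with the mitochondrial ones that overlap an exon, fell in 1137 genes, of which 869 held 1 locus and 35 held at least 5. For 45 coding genes, mitochondrial ones included, with 167 loci, no row was found under the gene's symbol or a synonym. Rows under another name at the same position were not sought.

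Most loci were close to a row with a symbol. The median distance between the edges was 3612 bases (quartiles 768.5 and 19956.5), 783 loci (27.0%) were within 1000 bases, and 234 were over 100000 bases away. Of those outside annotated genes, 336 lay downstream of the nearest GENCODE gene on its strand and 266 lay upstream of it on the opposite strand, the arrangement of divergent transcription, at median distances of 2347.5 and 712 bases. Another 150 were upstream of that gene on the same strand and 59 downstream on the opposite strand. RefSeq promoter windows, from 250 bases before to 50 after a start, were overlapped by 383 loci (13.2%), 248 of them on the strand of the gene. Every chromosome carried them, and their share of a chromosome's rows ran from 7.82% on chromosome 2 to 16.9% on chromosome 18 among the autosomes and X.

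Of the 2874 tested loci 74 (2.57%) were called at a Cuffdiff q under 0.05 per the authors' deposited table, 30 higher and 44 lower in q2, where 7.63% of all tested rows were called, 4.24% higher and 3.39% lower. At an unadjusted p under 0.05 the counts were 298 loci (10.4%) against 19.2% of all tested rows. A stricter q under 0.01 left 37 loci where 4.36% of all tested rows passed, a looser q under 0.1 gave 132 where 10.5% passed, and 66 of the 74 also had an absolute log2 fold change of at least 1, as did 4.49% of all tested rows. The calls fell in 67 groups of loci within 5000 bases of each other, so several describe the same transcript. Fold changes were wider than elsewhere: the median absolute log2 fold change per the authors' deposited table was 0.60 for the loci and 0.32 over all tested rows. Their errors were wider as well, with a median of 0.94 log2 units against 0.38, where the error is the quotient of the deposited log2 fold change and test statistic. By length, 8.93% of tested loci of at least 1000 bases were called and between 1.60% and 3.15% in each class of shorter ones. Across the threshold, Slmap and Hotairm1 loci stood just inside at q of 0.0457 and 0.0488 and a Dchs2 and a Mob1b locus just outside at 0.0503 and 0.0506 per the authors' deposited table. In bulk RNA such as this, fewer cells of a type and less RNA per cell cannot be told apart.

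For context, Foxp1 itself was 4.09-fold lower in q2 per the authors' deposited table (Cuffdiff q = 0.00162). No locus without a symbol lay within the Foxp1 locus, and the nearest, XLOC_019376, was 336002 bases away with a log2 fold change of -0.54 per the authors' deposited table (Cuffdiff q = 0.781). Of 11 neural stem cell marker genes 10 were tested, and Cuffdiff called 2 higher and 2 lower in q2. All 4 astrocyte markers were tested and 3 were called lower and 0 higher; their part in the lower loci was not tested. Of 5 neuron markers 3 were tested and 1 was called higher, and of 5 oligodendrocyte lineage markers 4 were tested, with 1 called higher and 1 lower. Among microglia, endothelial and mural, and fibroblast markers, 4 of 5, 3 of 5 and 4 of 5 were not tested, and Cuffdiff called 0 of the others.

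The few called loci in 3' UTRs were mostly lower and those in 5' UTRs mostly higher, at shares close to or below those over all tested rows. Among 383 tested 3' UTR loci, 13 (3.39%) were called lower, the same share as over all tested rows, and 1 (0.26%) higher, and 5 of the 13 lie in Zbtb20 and 2 in Ntrk3. Their median log2 fold change per the authors' deposited table was -0.41, against -0.05 over all tested rows. Among 292 tested 5' UTR loci, 11 (3.77%, against 4.24% of all tested rows) were called higher and 5 (1.71%) lower, with a median of 0.19 per the authors' deposited table. Of 310 tested coding-sequence loci 5 (1.61%) were called higher and 2 (0.65%) lower, with a median of 0.10, and of 330 tested long noncoding loci 0 were called higher and 7 (2.12%) lower, with a median of -0.26, per the authors' deposited table. These classes need an overlap of only 1 base, and with 50% required, 4 coding-sequence loci were called higher and 0 lower. At an unadjusted p under 0.05, Cuffdiff put 2 long noncoding loci higher and 25 lower. Of 807 tested loci outside genes 14 (1.73%) were called, 9 of them lower, per the authors' deposited table.

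**Figure D2:**
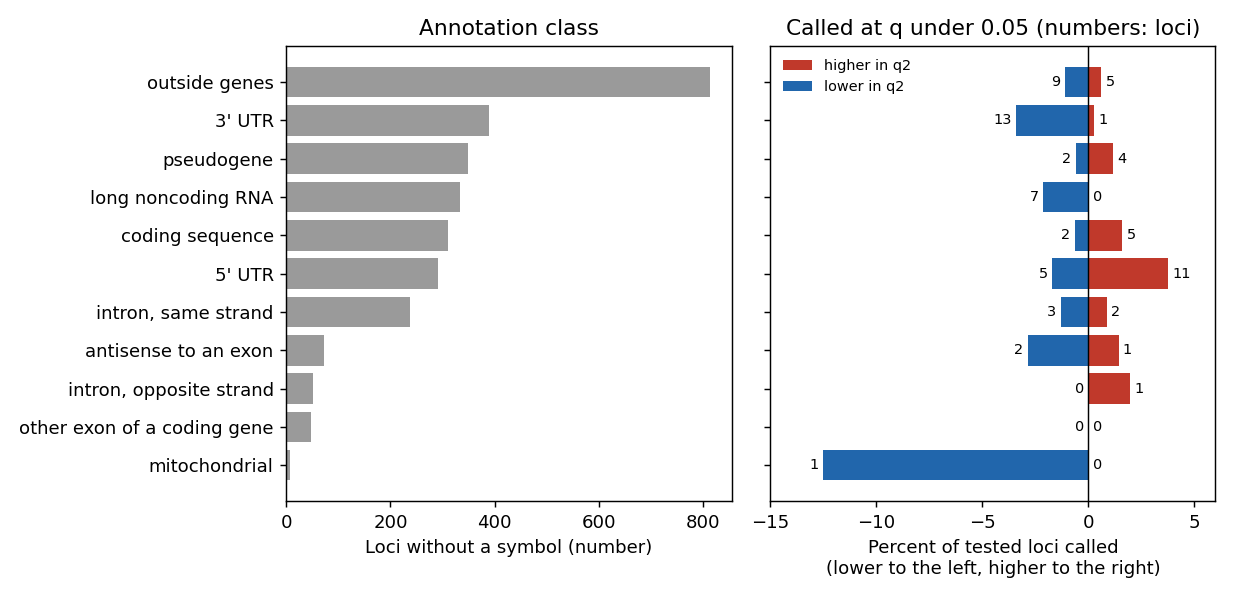
Number of loci without a symbol in each GENCODE M21 annotation class (left) and the percent of tested loci that Cuffdiff called, lower in q2 in blue to the left and higher in red to the right (right; the figures beside the bars are numbers of loci). The 3' UTR class has 13 lower and 1 higher, the 5' UTR class 5 lower and 11 higher; the mitochondrial bar is 1 of 8 loci.

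Base composition moved with these differences. GC content, taken over at least 40 bases of an exon, had a median of 42.6% in 3' UTR loci, 52.2% in coding sequence, 60.8% in 5' UTR loci and 48.8% in long noncoding loci. Within the 5' UTR class, 151 loci with at least 60% GC had a median log2 fold change of 0.53, 81 with 50 to 60% a median of 0.03, and 45 with 40 to 50% a median of -0.35, per the authors' deposited table. Within the 3' UTR class, 126 loci under 40% GC had a median of -0.80, 198 with 40 to 50% a median of -0.30 and 47 with 50 to 60% a median of -0.19, per the authors' deposited table. The 10 loci of the 5' UTR class called higher with a finite value had a GC content from 57.7 to 80.9%. The 4 called lower with a finite value ran from 47.1 to 63.8%, and the median of the whole class was 60.8%. The medians thus rose with GC content inside each class, and the part of GC content in the calls was not tested.

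**Figure D3:**
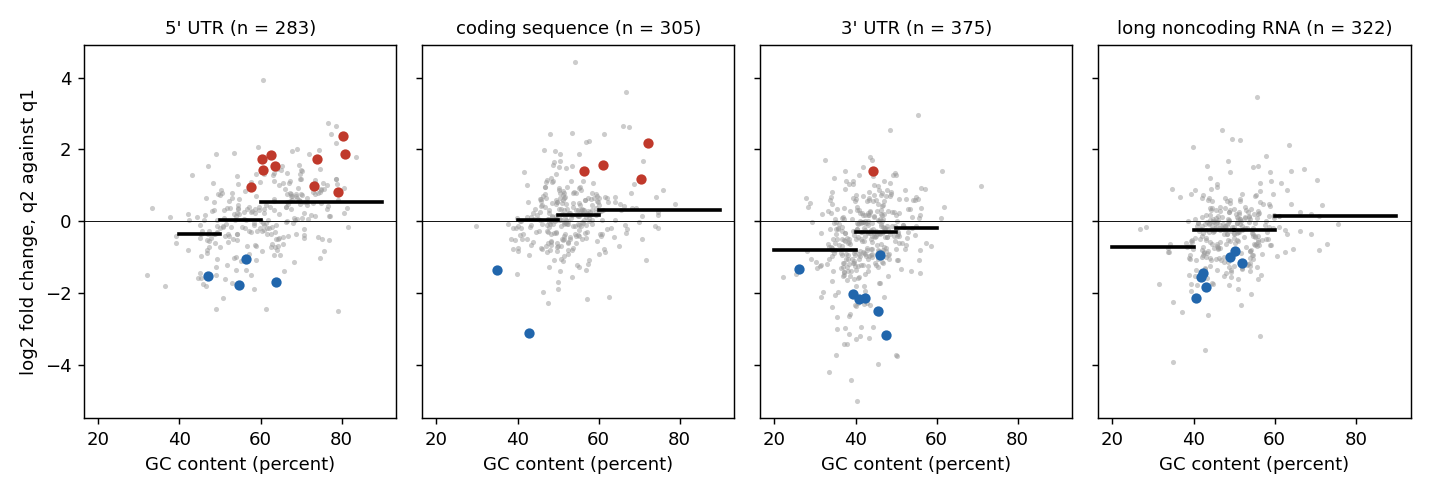
GC content of the exon part of each locus in percent (x) against its log2 fold change, q2 against q1 (y), in 4 annotation classes. Points are loci, red called higher, blue called lower and grey not called; black bars are medians of GC classes below 40, 40 to 50, 50 to 60 and from 60% with at least 20 loci, and they rise from left to right in the UTR and coding classes.

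Where the gene around a locus had a row of its own, the 2 could be set side by side. This was possible for 878 tested loci in 546 genes, and 868 pairs had 2 finite values, of which 573 (66.0%) had the same sign per the authors' deposited table. Across these pairs Pearson's r was 0.60 and Spearman's rho 0.51, a description only, since both rows of a pair come from the same libraries and many pairs share a gene. Locus and gene were both called in 20 pairs, and all 20 went the same way. In 15 pairs the locus alone was called, and in 113 the gene alone. The 3' UTR loci had a median difference from their gene of -0.22 log2 units (119 above the gene and 241 below), and the 5' UTR loci one of 0.25 (176 above and 104 below), per the authors' deposited table.

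**Figure D4:**
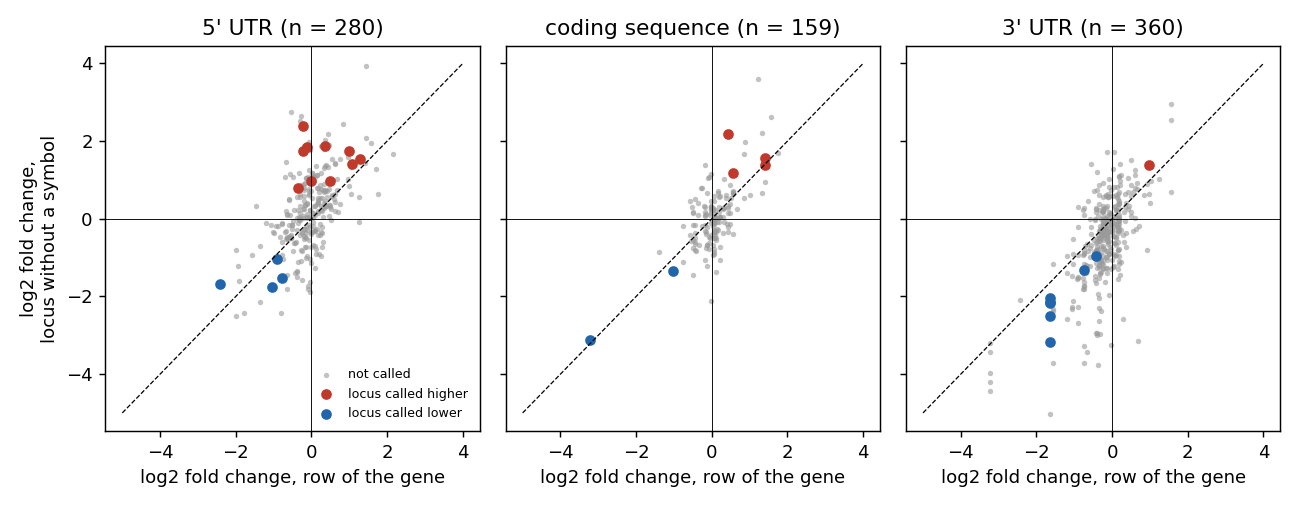
The row of the gene (x) against the locus without a symbol inside it (y), both as log2 fold changes of q2 against q1, for 280 loci in 5' UTRs, 159 in coding sequence and 360 in 3' UTRs. Points are loci, red called higher, blue called lower; the dashed line marks equal values, and 5 red points in the 5' UTR panel lie to the left of 0 on the x axis.

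Zbtb20, a zinc finger repressor that acts in cortical patterning and astrocyte formation, gave the longest run of calls. Its row with a symbol ended at 43620141 on chromosome 16 and was 3.11-fold lower in q2 per the authors' deposited table (Cuffdiff q = 0.00162). Downstream, in the annotated 3' UTR, stood 6 loci of 196 to 6352 bases between chr16:43627135-43640549, of which 5 were called lower. In order along the transcript their log2 fold changes per the authors' deposited table were -2.03, -2.13, -2.18, -2.49, -5.02 and -3.18. The largest, XLOC_008877, was 4.38-fold lower with an error of 0.40 log2 units (Cuffdiff q = 0.00162) per the authors' deposited table. XLOC_008880, the shortest at 196 bases, had the lowest value, -5.02, yet an unadjusted p of 0.25 beside a statistic of -5.56 per the authors' deposited table. In all, 46 loci had an absolute statistic over 3 with a p over 0.05, 22 of them under 100 bases.

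St6gal2, a sialyltransferase gene, also had a run of loci downstream, all lower in value. Its row was 9.30-fold lower in q2 and its 6 downstream loci had log2 fold changes between -4.43 and -3.11 per the authors' deposited table. One of them passed the test, XLOC_009975, 750 bases overlapping coding sequence, at -3.11 with an error of 0.61 (Cuffdiff q = 0.00162) per the authors' deposited table. Coding sequence makes up less than 50% of its length. Ptpn4, a tyrosine phosphatase gene with a log2 fold change of -1.58 in its own row, had 4 loci in the 3' UTR and 1 in the 5' UTR, all negative from -3.72 to -0.94 and none called per the authors' deposited table, with 3 of the 5 at an unadjusted p under 0.05 in Cuffdiff.

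Ntrk3, which encodes the neurotrophin receptor TrkC, had 11 loci in its 3' UTR and 1 in its 5' UTR, and all 12 were lower in value in q2 per the authors' deposited table. Its row was 1.69-fold lower (Cuffdiff q = 0.0219) per the authors' deposited table. The 2 called loci, XLOC_022140 (291 bases, Cuffdiff q = 0.0149) and XLOC_022141 (86 bases, q = 0.0361), were listed at 0 in q2 per the authors' deposited table, and the finite values ran from -3.28 to -0.89.

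Runs also went the other way. The uncharacterised coding gene 2900026A02Rik had 5 loci upstream of its row, at 0.96 to 1.58, next to 1.40 for the row, and 2 were called higher (XLOC_018611 and XLOC_018612, Cuffdiff q = 0.00292 and 0.00162) per the authors' deposited table. Maf, a basic leucine zipper transcription factor, had 3 loci at 1.03, 1.40 and 1.58 around a row at 0.96, and the 3' one, XLOC_023937, was called (Cuffdiff q = 0.0126) per the authors' deposited table. Dchs2, a large cadherin related to Dachsous, had no row found under its symbol or a synonym. It held 10 coding-sequence loci, all positive from 0.54 to 2.64 with a median of 1.56 per the authors' deposited table. None passed a q of 0.05, and 6 had an unadjusted p under 0.05 in Cuffdiff.

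**Figure D5:**
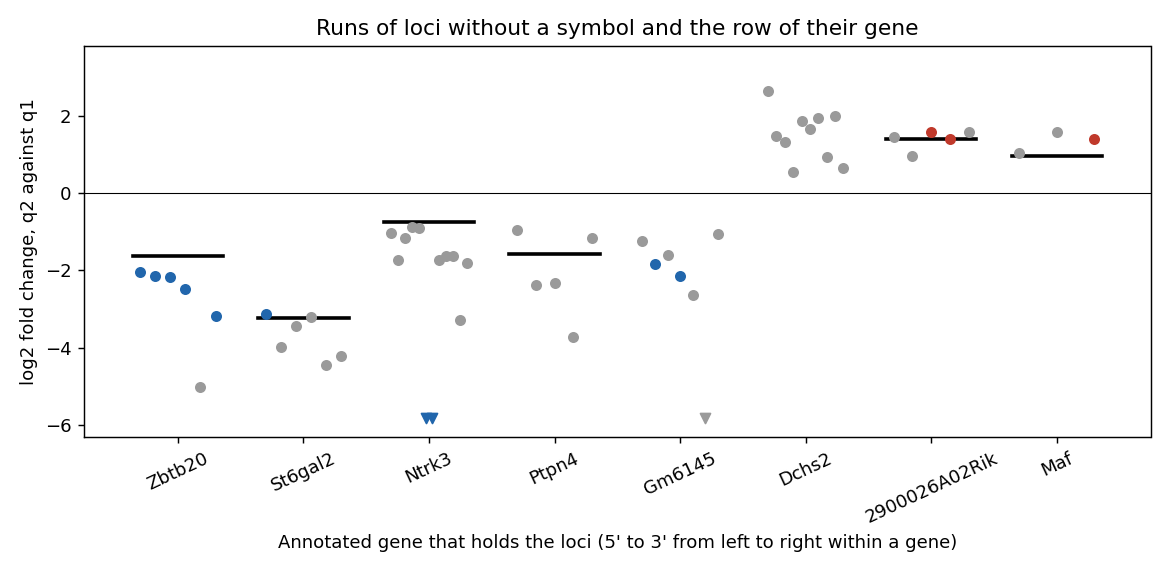
Log2 fold change, q2 against q1 (y), of loci without a symbol inside 8 genes (x; 5' to 3' from left to right within a gene). Points are loci, blue called lower, red called higher and grey not called; triangles at the bottom are loci listed at 0 in q2, and black bars are the row of the gene (Gm6145 and Dchs2 had none here); the Zbtb20 loci lie between -2.03 and -5.02, all under their bar.

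Other genes with many loci showed no call. Rnf213, a large ubiquitin ligase, held 39 loci from -1.27 to 4.45 with a median of 0.60 per the authors' deposited table. Cuffdiff called 0 of the 39, and 4 had an unadjusted p under 0.05. Ank2, the ankyrin-B gene, held 25 with a median of -0.13, next to 0.05 for its row, and Cuffdiff called 0, with 2 at an unadjusted p under 0.05, per the authors' deposited table. Stard9, a kinesin gene, held 20 loci with a median of 0.18 per the authors' deposited table, and Cuffdiff called 0, with 0 at an unadjusted p under 0.05. Zbtb37, another zinc finger gene, held 13 loci with a median of -1.05 beside a row at -0.34 per the authors' deposited table, and Cuffdiff again called 0, with 0 at an unadjusted p under 0.05.

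Some called loci at the 5' ends of genes had values of the opposite sign to their gene, although 190 of 280 pairs in this class (67.9%) had the same sign. Arih1, a ubiquitin ligase gene, had a locus of 165 bases 96 bases upstream of its row (XLOC_025191, chr9:59486471-59486635, minus strand) that was 5.20-fold higher (Cuffdiff q = 0.0118), with the row at -0.22 (q = 0.643), per the authors' deposited table. The same arrangement held for Prkar1a, a regulatory subunit of protein kinase A, at 1.85 against -0.11, and for Bmpr2, a BMP receptor, at 1.74 against -0.22 per the authors' deposited table. Slmap stood at 0.97 against -0.01 and the bicarbonate transporter Slc4a4 at 0.81 against -0.36 per the authors' deposited table. These 5 are all the called loci with a finite value that overlap an exon of a gene whose row had the opposite sign. None of the 5 genes was called by Cuffdiff. Loci that overlap no exon on their strand, such as XLOC_004605 near Cacng4, are not in this count. XLOC_006632 in the 5' UTR of Srek1, a splicing regulator gene, was listed at 0 in q2 and called lower (Cuffdiff q = 0.0214) with the row at 0.12 (q = 0.863), per the authors' deposited table. The difference between locus and gene was not tested. Irf2bp2, a transcriptional corepressor, had a locus at 1.88 with a row at 0.36, and the protocadherin Fat1 one at 0.96 with a row at 0.49, per the authors' deposited table. A locus of 67 bases ahead of Unc5c, a netrin receptor gene, was listed at 0 in q1 and called higher (Cuffdiff q = 0.00292) per the authors' deposited table.

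In other genes the 5' locus followed the gene. The locus in the Igf1r promoter, XLOC_020914, 65 bases ahead of the row, was 5.01-fold higher with an error of 0.82 log2 units (Cuffdiff q = 0.0329), and Igf1r was 1.88-fold higher (q = 0.00162), per the authors' deposited table. Egr3, an immediate early transcription factor, had a 5' UTR locus at 1.42 and a row at 1.08 per the authors' deposited table. The fibrillin gene Fbn2 stood at 1.55 and 1.27 and the calcium pump gene Atp2b4 at 1.74 and 1.00, locus and row, per the authors' deposited table. On the lower side stood 2 genes of astrocytes, Ndrg2 with a locus at -1.68 and a row at -2.42 and Hepacam, a glial adhesion molecule, at -1.53 and -0.78, per the authors' deposited table. Lpo, the lactoperoxidase gene, stood at -1.04 and -0.91 per the authors' deposited table. Ptch1, the hedgehog receptor, had a called locus at 1.03 over its promoter (XLOC_006471, chr13:63565923-63566271, minus strand) and a row at 0.60 that was not called (Cuffdiff q = 0.0961), per the authors' deposited table. Of the 383 loci over a RefSeq promoter window 13 were called, where 7.63% of all tested rows were called. On the strand of the gene were 248 of the 383 loci and 11 of the 13 called ones. The other two were opposite to Gpt2, an alanine aminotransferase gene, with XLOC_023790 at -1.42 against -0.39 for the row per the authors' deposited table, and opposite to Gm52185. Whether the counting used strand is not given, so reads of overlapping genes on 2 strands cannot be told apart.

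At the 3' end, the integrin gene Itgb8 had a locus 56 bases downstream of its row, XLOC_005679, at -1.33 with the row at -0.73, both called, per the authors' deposited table. Rnf180, a ubiquitin ligase gene, had a locus of 1529 bases, XLOC_006649, at -1.36 with the row at -1.03 per the authors' deposited table. It overlaps coding sequence, which makes up less than 50% of its length. A locus of Igsf9b at -0.96 was called while the row at -0.43 was not (Cuffdiff q = 0.327) per the authors' deposited table. The same locus lies 179 bases upstream of the row of AI414108 on the same strand. That row was called lower at -1.01 (Cuffdiff q = 0.00292) per the authors' deposited table.

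When any nearest row with a symbol was taken in place of the gene around the locus, 2375 pairs had been tested on both sides. The locus was called in 62 pairs and the neighbour in 276. Both were called in 20 pairs, all 20 with the same direction and all 20 on the same strand. On the opposite strand Cuffdiff called the locus in 9 pairs, the neighbour in 88 and both in 0. In 10 of the opposite-strand pairs both sides had an unadjusted p under 0.05 in Cuffdiff. Over 1469 finite pairs on the same strand Pearson's r was 0.47, and over 857 on opposite strands it was 0.13, again a description over loci of the same libraries.

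Long noncoding RNAs called lower had no row of their own here. Gm6145, a processed transcript on chromosome 14 between 105624385 and 105643705, gave 7 loci, all lower in value in q2 per the authors' deposited table. XLOC_007637 was 4.44-fold lower with an error of 0.56 log2 units (Cuffdiff q = 0.00162) and XLOC_007640 was 3.58-fold lower (q = 0.0118) per the authors' deposited table. Of the other 5, 4 had values from -2.63 to -1.05 and XLOC_007635 was listed at 0 in q2, per the authors' deposited table. Hotairm1, a noncoding RNA, had a called locus at -1.55 (XLOC_019168, Cuffdiff q = 0.0488) per the authors' deposited table. Gm11266, annotated as antisense, stood at -1.44 (XLOC_016037, Cuffdiff q = 0.0453), and Nfib, a transcription factor gene of glial development on the opposite strand, at -0.37 and not called, per the authors' deposited table. AW047730, Gm35040 and Gm19554 had called loci at -0.98, -1.16 and -0.82 per the authors' deposited table.

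Of 344 tested pseudogene loci Cuffdiff called 6 (1.74%), against 7.63% of all tested rows. At least 50 bases of the exon were available for 299 of the 348, and 285 matched a coding transcript, with a median identity of 97.8%, 240 at 95% or more and 18 at 100%; 56 matched a ribosomal protein gene. For 270 both values were finite, and 174 of these pairs had the same sign (Pearson's r 0.33, Spearman's rho 0.36, a description over pairs that share libraries and, in places, a coding gene). The median absolute log2 fold change was 0.52 for the pseudogene loci and 0.20 for the coding rows per the authors' deposited table. Among pairs with a match, the locus was called in 5 and the coding row in 5, with Tuba1b counted for both Gm14150 and Gm5311. In 4 pairs the coding gene alone was called (Armh4, Cdh11, Ndufa6, and Tuba1b with Gm5311). Both were called in 1 pair: Gm14150 at 0.92 with the tubulin gene Tuba1b at 0.72 per the authors' deposited table, with Tuba1c an equally good match.

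The fold changes of the other called pairs were as follows. Gm7424 (XLOC_019957, 428 bases, 12 mismatches to Rpl5 in all) was 6.74-fold higher in q2 (Cuffdiff q = 0.0063) while Rpl5, a ribosomal protein gene, stood at -0.23, per the authors' deposited table. Gm13443 (XLOC_012528, 3 mismatches to Glo1 over 308 bases) was 2.53-fold lower (Cuffdiff q = 0.0298), and Glo1, the glyoxalase gene, stood at -0.14, per the authors' deposited table. The Gm6576 locus, XLOC_007738, was listed at 0 in q1 and called higher (Cuffdiff q = 0.00162), and the ribosomal protein gene Rps2 stood at 0.29, per the authors' deposited table. Gm10039 (XLOC_004496), with 1 mismatch in 271 bases to the ATP synthase subunit gene Atp5g1, was 3.63-fold higher (Cuffdiff q = 0.0063), with Atp5g1 at -0.03, per the authors' deposited table. None of Rpl5, Glo1, Rps2 and Atp5g1 was called by Cuffdiff.

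Among called loci, 22 of 74 (29.7%) were listed at 0 in a condition, 7 in q1 and 15 in q2, per the authors' deposited table. Over all rows such calls numbered 28, or 0.183% of those tested, so 22 of the 28 were loci without a symbol. They ran from 59 to 476 bases. An exact 0 can be a failed estimate, and no fold change is given for these loci. Those with the smallest p per the authors' deposited table include 3' UTR loci listed at 0 in q2 in Sept8, Cdc73 and Rnf217, whose own rows stood at -0.27, -0.15 and -0.08 and were not called by Cuffdiff. XLOC_024823, a locus of 237 bases placed 241 bases ahead of the row of Limd1, was listed at 0 in q1, with Limd1 called higher at 1.55, per the authors' deposited table. The rest of that set, XLOC_002270, XLOC_005406, XLOC_007571, XLOC_008869 and XLOC_016489, lay outside genes or in introns, from 4863 to 958656 bases from a row with a symbol.

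Other loci at the extremes lay in no run of calls described above. XLOC_019811, 290 bases outside genes at chr6:47739644-47739933, was 6.88-fold lower (Cuffdiff q = 0.0063) per the authors' deposited table, and XLOC_023366, 42 bases in an intron near Irf8, was 4.92-fold lower (q = 0.00162) per the authors' deposited table. A pair of loci among the T cell receptor alpha variable segments on chromosome 14, XLOC_006920 and XLOC_006922 (in Trav12-4), stood at -2.23 and -2.07 per the authors' deposited table (Cuffdiff q = 0.0388 and 0.00918). XLOC_025547, 1 of 5 loci in Ppp2r3d, was 4.54-fold higher with the row of the gene at 0.42 and not called (Cuffdiff q = 0.543), per the authors' deposited table. XLOC_004605, 74 bases long and 56 bases from Cacng4, was 3.02-fold higher, with Cacng4 at -0.31 and not called, per the authors' deposited table. On the mitochondrial genome no row with a symbol was used here. XLOC_025554, 2039 bases long, was 2.33-fold lower with an error of 0.32 (Cuffdiff q = 0.00162) per the authors' deposited table. Its largest exon overlap was with the ribosomal RNA gene mt-Rnr1, but the value is that of the whole locus, not of this gene alone. The other 7 mitochondrial loci were negative, from -1.82 to -0.37, and not called per the authors' deposited table.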

How the data were processed

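The authors deposited 1 table that compares q2 with q1 over 26815 loci. Per the file headers it gives log2 fold changes (q2 over q1), which are infinite for a locus listed at 0 on 1 side. It also gives the authors' score, their test statistic, and the authors' p-values and q-values. Each of the 15315 q-values matches Benjamini-Hochberg adjustment of the tested rows within a relative 0.001, and no p-value is under 5e-05. The submitters' processing notes name mm10 and the tools TopHat2 2.0.9, Cufflinks 2.2.1 and Cuffdiff. Annotation, filters and strand setting were not given in the sources used here. Short or repeated loci can gain or lose reads in such counting, and the part of this in their errors was not tested.

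Because no label ties q1 or q2 to a group, 2 columns of per-condition values were not used. Planned work on levels, pseudocounts, level filters and genome windows was dropped, and depth and its precision are unknown. Calls are those at the authors' q under 0.05, over all tested rows. Strand was read from row order, as each chromosome is listed in 2 ascending runs: of 21913 rows with a known symbol, 99.9% of the first run were on the plus strand and 99.8% of the second on the minus strand. Loci were placed on GENCODE M21 by an overlap of 1 base, with 50% as an alternative; 98.6% of 22469 rows with 1 symbol overlapped their own gene there. Pseudogene loci with at least 50 exon bases were aligned to coding transcripts with blastn 2.17.0 at an e-value of 1e-10. Interval functions were tested on simulated data. Python 3.11.15, numpy 2.4.6, pandas 2.3.3, scipy 1.17.1 and matplotlib 3.10.9 were used.

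The loci and lists were chosen with earlier results of these data known. The rule for naming took the 10 highest and 10 lowest called loci with finite values, 10 called loci listed at 0 by smallest p, the 5 longest, and the 3 called loci nearest a called row in each direction; its part on the highest levels was dropped. Other named loci and genes, the groups by gene and the GC classes were chosen after their values were seen. A few named loci and sequences are left out here.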

Additional observations from a re-analysis of the deposited data

How the results depend on the processing

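Of the 74 calls, 66 remained with an absolute log2 fold change of at least 1, 70 without unplaced scaffolds, X, Y and M, and 74 among loci that overlap no other row. A Cuffdiff q under 0.01 gave 37 loci (14 higher, 23 lower) and a q under 0.1 gave 132 (51 higher, 81 lower), against 4.36% and 10.5% of all tested rows. The median distance to a row with a symbol was 26153 bases from midpoint to midpoint and 4081 bases to tested rows with 1 symbol, in place of 3612. Locus and nearest row called in the same direction numbered 13 within 10000 bases and 37 at a q under 0.1, in place of 20; all 37 pairs called at that q went the same way. With 50% overlap, 52.6% of loci in place of 59.5% lay in an exon or the mitochondrial genome, and 31.6% in place of 28.0% lay outside genes. Called 3' UTR loci were then 15 lower and 1 higher, 5' UTR loci 4 lower and 10 higher, and coding-sequence loci 0 lower and 4 higher. Subtracting the median of all tested rows (-0.05) could not change the sign of any of the 30 named loci with a finite value. The smallest of their log2 fold changes in size was -0.37 per the authors' deposited table, so this is no check of the calls. No paired analysis was possible because the table holds 1 pooled comparison and no values per library were used; leaving out libraries, level filters and genome windows were not run for want of such values or a genome. Unknown depth limits what the uncalled loci can show.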

Other observations

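Groups of loci within 5000 bases of each other also formed beside other genes, downstream or upstream of their rows. A group of 10 loci downstream of Pura, a gene for a nucleic acid binding protein of neurons, had 7 loci outside genes, 1 in Pura and 2 in Igip, with values from -1.49 to -0.47, next to -0.63 for the row of Pura, per the authors' deposited table. Downstream of Dpf3, a chromatin remodelling subunit gene, 11 loci outside genes had a median of -0.61 and the row stood at -0.01 per the authors' deposited table. In Olfm2, which encodes an olfactomedin, 6 loci upstream of its row were all positive from 0.25 to 2.28, beside a row at 0.67, per the authors' deposited table. A group of 6 loci on chromosome X starting 403 bases from Sox3, a transcription factor gene of neural progenitors, had values from -2.38 to -0.23 per the authors' deposited table. It lay upstream on the opposite strand to Sox3, whose row stood at -0.17, with 2 of its loci in exons of Gm14662, and held 1 locus called lower, XLOC_025791, at -1.80 (Cuffdiff q = 0.0434), per the authors' deposited table. Cuffdiff called 0 loci in the Pura, Dpf3 and Olfm2 groups, and at an unadjusted p under 0.05 the groups had 1, 0 and 0.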
